A study of Mus musculus with 12 samples.

Results

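CD8+ and CD4+ T cells from the same kind of control culture were compared with each other across genes. The comparison used 6 of the 12 arrays of the series, chosen by their titles: 3 of CD8 and 3 of CD4 T cells. All 6 came from mouse splenocytes kept for 24 h without linoleic acid, after which CD4+ and CD8+ T cells were sorted and their total RNA was hybridised to Affymetrix MoGene-2_0-st arrays, which measure whole transcripts. The other 6 arrays are of the same sorted cell types, from splenocytes kept for 24 h with 50 µM linoleic acid, a dietary fatty acid. Those arrays served here to show whether the lineage difference recurred, and they also enter the estimate of spread behind the p-values. The labels state neither strain, genotype, age nor the number of animals, nor whether the 3 arrays of a group came from separate animals or cultures, so each p-value measures the spread between these arrays, which may be technical.

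CD4 and CD8 T cells arise from a common thymic precursor. The transcription factor ThPOK, encoded by Zbtb7b, directs cells toward the CD4 helper fate, and Runx3 toward the CD8 cytotoxic fate. CD4 T cells recognise peptides on MHC class II and help B cells and macrophages, and they include the regulatory T cells that depend on Foxp3. CD8 T cells recognise peptides on MHC class I and kill their targets through perforin and granzymes.

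Values are log2 intensities from RMA, a difference is the CD8 mean minus the CD4 mean given ± its standard error (n = 3 arrays per cell type), and p-values are from limma, adjusted over 14323 genes by the Benjamini-Hochberg method with a threshold of 0.05. Arrays are numbered 1 to 3 within a cell type as in the labels. The medians of the 6 arrays lay between 4.66 and 4.73. Markers of T cells averaged 9.37 to 9.72 on the 6 arrays. Markers of B cells, which a spleen holds in number, averaged 6.95, 8.16 and 8.06 on the CD4 arrays and 6.50, 7.74 and 7.81 on the CD8 arrays, lowest on array 1 of each. All 16 B cell markers tested were lower on average in CD8, by a median of -0.36, and 0 of them passed the threshold; without CD8 array 1 the median was 0.07. Myeloid markers averaged 5.09 to 5.84 and dendritic cell markers 5.28 to 5.63, with 0 of 14 and 0 of 10 tested past the threshold. NK cell markers averaged 5.27 to 5.87 on the CD4 and 5.96 to 6.27 on the CD8 arrays. Every CD8 array thus lay above every CD4 array. Of the 12 tested, Nkg7, Eomes and Prf1 passed as higher in CD8, 10 had a difference above 0, and the median was 0.16. The defining receptor Ncr1, 1 of the 2 below 0, read 5.33, 5.76 and 6.06 on the CD4 arrays and 4.83, 5.88 and 5.71 on the CD8 arrays. As a gauge of background, 95% of 1447 olfactory and vomeronasal receptor genes had a mean below log2 5.09. Where the lower cell type lay under that level, its fold is given as at least that of the higher cell type over the gauge. Some such genes are named below by their log2 difference alone, and the bounds of these were 2.65-fold (P2rx7), 2.54-fold (Pdcd1), 2.13-fold (Chst11) and 2.04-fold (Socs2). For Cd200, Cd200r1, Ier3, Klrg1, Nrp1, Ccr2, Ccr4, Maf, Zbtb16, Ung, Il1r2, Itgb8, Acvrl1, Tigit, Mir23a and Mir687 they were 1.08-fold to 1.70-fold. Penk, Tnfsf11, Tnfsf4 and Mir3060 lay under the gauge in both cell types, and their differences have no bound.

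Between the cell types 280 genes passed the threshold, which is 1.95% of the 14323 tested. The counts in the gene lists below are to be set beside this share. CD8 T cells held more RNA of 147 of them (1.03% of genes tested) and less of 133 (0.929%), and the median difference of all genes was 0.00. For each of the 280 the CD8 and CD4 arrays did not overlap, against 16.1% of all genes tested. The size of the difference was 0.94 in the median called gene, and 122 of the 280 differed by more than 2-fold. In 69 of the 280 the lower cell type lay under the background gauge, and in 12 of these both did. With each control array left out in turn, 146 of the 280 kept their call throughout and 134 lost it at least once, leaving 176 to 223 genes past the threshold. The count moved by more than 1.5 times without CD8 array 1 (176), CD8 array 2 (179) and CD4 array 3 (184).

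The genes of the sorted co-receptors checked the labels. Cd4 read 11.19, 10.77 and 10.80 on the CD4 arrays and 5.32, 6.48 and 6.32 on the CD8 arrays. Cd8a, one chain of the CD8 co-receptor, read 5.41, 6.16 and 6.43 on the CD4 arrays and 11.21, 11.29 and 11.18 on the CD8 arrays, and Cd8b1, its partner chain, read 7.41, 7.30 and 7.57 on the CD4 arrays and 11.27, 11.17 and 11.25 on the CD8 arrays. The groups lay far apart for all 3 genes, and each array fell on the side its label names. Some signal of the other lineage's co-receptor remained above the background gauge, with Cd4 at 5.32 or more on every CD8 array and Cd8a at 5.41 or more on every CD4 array.

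Among 24 tested regulators of the CD4 or CD8 choice, 1 was higher and 1 was lower in CD8, with a list median of -0.01. Zbtb7b, the CD4 fate regulator, read 6.58, 6.05 and 6.28 on the CD4 arrays and 5.60, 5.20 and 4.99 on the CD8 arrays, a difference of -1.04 ± 0.20 (adjusted p = 0.0116). Runx3, the CD8 fate regulator, read 6.97, 6.67 and 6.15 on the CD4 arrays and 7.93, 7.78 and 7.42 on the CD8 arrays, a difference of 1.11 ± 0.24 (adjusted p = 0.0251). The arrays of the 2 lineages did not overlap for either gene, as for all 280 genes past the threshold. The differences were far smaller than those of the co-receptors. Runx1, a relative of Runx3 that acts in immature T cells, went the other way, at 8.17, 8.15 and 7.83 on the CD4 arrays and 7.49, 7.32 and 7.07 on the CD8 arrays, and did not pass (-0.75 ± 0.18, adjusted p = 0.0534). Myb (0.36), Tcf12 (0.33), Tox2 (-0.27), Tcf3 (0.22) and the deacetylase gene Hdac1 (-0.16) differed less and did not pass. Zbtb7b lost its call without CD4 array 1 (adjusted p = 0.0568), CD8 array 2 (0.0579) or CD8 array 3 (0.0663) and Runx3 without each control array in turn except CD4 array 1 and CD8 array 3 (adjusted p = 0.0782 to 0.126).

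**Figure D1:**
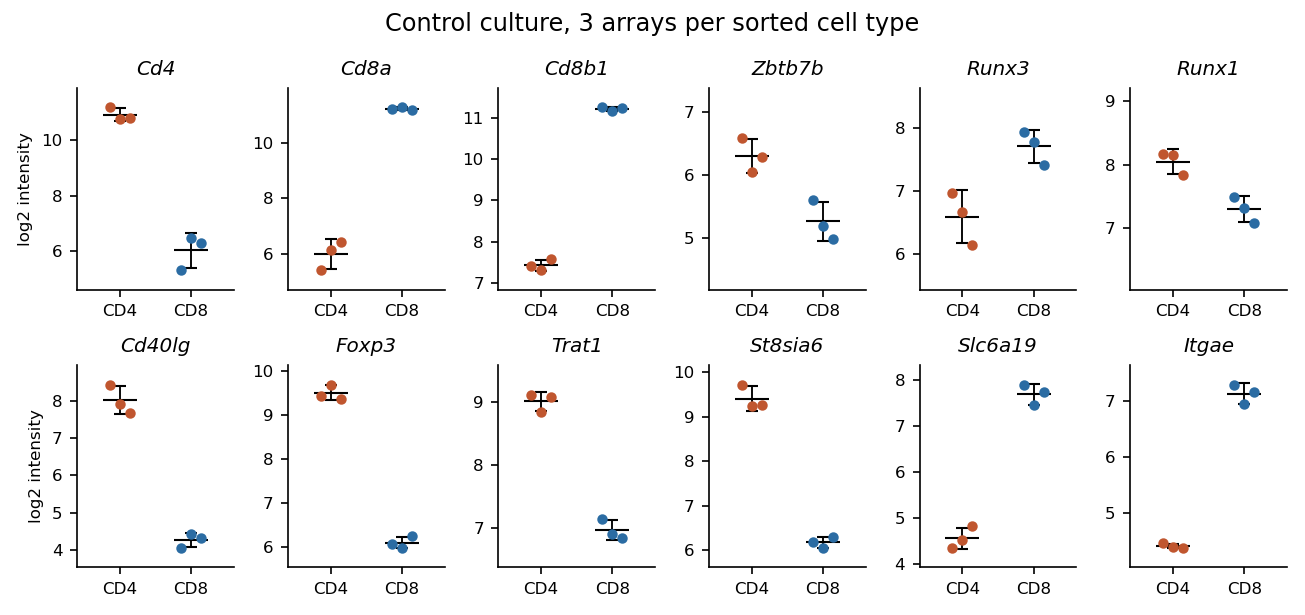
Log2 intensity (vertical axis, a separate scale for each gene) of 12 genes on the 3 CD4 (orange) and 3 CD8 (blue) arrays of control culture; points are arrays, black lines the mean ± SD. The cell types do not overlap in any panel; Cd4 averages 10.92 in CD4 and 6.04 in CD8 T cells, while Runx3 averages 6.60 and 7.71.

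Genes of regulatory T cells, the suppressive subset of CD4 T cells, lay almost entirely on the CD4 side. Of 27 tested, 18 were lower in CD8, 0 were higher, and the median difference was -1.02. Foxp3, the factor that defines the subset, read 9.44, 9.69 and 9.37 on the CD4 arrays and 6.08, 5.99 and 6.25 on the CD8 arrays, a 10.5-fold difference (-3.39 ± 0.16, adjusted p = 6.65e-08). Il2ra, the high-affinity chain of the interleukin-2 receptor, read 9.24, 9.60 and 9.29 on the CD4 arrays and 6.90, 7.18 and 7.39 on the CD8 arrays (-2.22 ± 0.16, adjusted p = 1.44e-06). For both genes every CD4 array stood above every CD8 array by more than 1 log2 unit. In RNA of a sorted population, a larger share of cells using a gene and more RNA per cell cannot be told apart.

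Other regulatory T cell genes lay lower in CD8 by similar or smaller amounts. Ecm1, a secreted matrix protein, read 8.25, 8.39 and 8.07 on the CD4 arrays and 5.65, 5.71 and 5.61 on the CD8 arrays (-2.58 ± 0.16, adjusted p = 4.09e-07). Lrrc32, which holds latent TGF-beta at the cell surface, read 7.39, 7.26 and 6.66 on the CD4 arrays and 4.98, 4.93 and 5.07 on the CD8 arrays and was at least 4.02-fold higher in CD4 (-2.11 ± 0.19, adjusted p = 1.4e-05). Itgb8, an integrin chain that activates latent TGF-beta, differed by -0.65. The TNF receptor family members Tnfrsf4 (OX40), Tnfrsf9 (4-1BB) and Tnfrsf18 (GITR) differed by -2.03, -1.76 and -0.89. The inhibitory receptor Ctla4 differed by -1.08, the orphan receptor Gpr83 by -1.63, the folate receptor relative Izumo1r by -1.51 and the skin-homing receptor Ccr4 by -1.59. Neuropilin 1 (Nrp1, -1.58), the Helios gene Ikzf2 (-0.81), the Blimp-1 gene Prdm1 (-0.54), Socs2 (-1.68), Rgs1 (-1.02) and the opioid precursor Penk (-1.14) completed the 18. Ccr4, Nrp1, Penk and Itgb8 had a mean over all 12 arrays under the background gauge. Of the members that did not pass, Ikzf4 differed by -0.55, Capg by -0.60, Entpd1 (CD39) by -0.58, Ccr8 by -0.74 and Swap70 by -0.71, and the CD73 gene Nt5e by 0.33. Left-out arrays gave 15 or 16 lower members, and 20 were lower with the B cell marker mean as a covariate. Ikzf2 lost its call without CD4 array 3 (adjusted p = 0.0549), Prdm1 without each control array in turn except CD4 array 3 (adjusted p = 0.0507 to 0.0995), Rgs1 without each control array in turn except CD4 array 1 and CD8 array 2 (adjusted p = 0.105 to 0.18), and Itgb8 without each control array in turn except CD8 array 1 (adjusted p = 0.0539 to 0.188).

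Helper genes were lower in CD8 as well. Of 20 tested genes of helper and follicular helper T cells, which guide B cells in germinal centres, 8 were lower in CD8 and 0 were higher, with a median of -0.53. Cd40lg, the CD40 ligand through which helper cells activate B cells and dendritic cells, read 8.43, 7.92 and 7.68 on the CD4 arrays and 4.06, 4.44 and 4.32 on the CD8 arrays, at least 7.56-fold higher in CD4 (-3.74 ± 0.22, adjusted p = 3.92e-07). Trat1, an adaptor of the T cell receptor complex, read 9.11, 8.84 and 9.08 on the CD4 arrays and 7.15, 6.91 and 6.85 on the CD8 arrays (-2.04 ± 0.16, adjusted p = 4.11e-06). For both genes the arrays of a lineage lay close together beside the gap between lineages. P2rx7, an ATP-gated channel, differed by -1.48, Pdcd1 (PD-1) by -1.39, the transcription factor gene Maf by -1.37, Tbc1d4, a regulator of vesicle traffic, by -1.35, Cd200 by -0.98 and Icos by -0.94. Maf had a mean under the background gauge, and a dimmer second probe set of it differed by -0.88. Bcl6, the factor that directs the follicular helper fate, read 7.64, 7.80 and 7.20 on the CD4 arrays and 6.83, 6.93 and 6.81 on the CD8 arrays and did not pass (-0.69 ± 0.20, adjusted p = 0.123). Btla (-0.73), Slamf6 (-0.36), Il6st (0.51), Tox2 (-0.27) and Cd84 (-0.17) did not pass either. Cd200 lost its call without each control array in turn except CD8 array 3 (adjusted p = 0.0674 to 0.118).

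Costimulatory and inhibitory receptors and their ligands, which set the threshold of T cell activation, lay mostly on the CD4 side. Of 30 tested, 12 were lower in CD8 and 1 was higher, with a median of -0.45. The 12 share Cd40lg, Tnfrsf4, Tnfrsf9, Tnfrsf18, Ctla4, Pdcd1, Icos and Cd200 with the groups above. The others were the inhibitory receptors Tigit (-1.32) and Cd200r1 (-1.17), Slamf1 (-0.96) and the TL1A receptor gene Tnfrsf25 (-0.69). Pdcd1 read 6.62, 6.42 and 6.28 on the CD4 arrays and 5.35, 4.92 and 4.87 on the CD8 arrays, and Ctla4 read 7.08, 6.92 and 7.35 on the CD4 arrays and 6.05, 6.01 and 6.07 on the CD8 arrays. Tigit read 5.60, 5.12 and 4.91 on the CD4 arrays and 3.69, 3.95 and 4.02 on the CD8 arrays, with all CD8 arrays under the background gauge. The member higher in CD8 was Cd226 (DNAM-1), an activating receptor that shares ligands with TIGIT, at 7.53, 6.92 and 7.27 on the CD4 arrays and 8.83, 8.70 and 8.81 on the CD8 arrays (1.54 ± 0.16, adjusted p = 7.95e-05). Its ligand gene Pvr differed the other way, by -0.94 (adjusted p = 0.00196). Cd28 (-0.55), Btla (-0.73), Fas (-0.35), Slamf6 (-0.36), Cd96 (0.33) and Cd80 (-1.05) did not pass. B cell markers were lower in CD8 by a median of -0.36 beside these receptors, and with their mean as a covariate 15 were lower and 1 was higher.

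**Figure D2:**
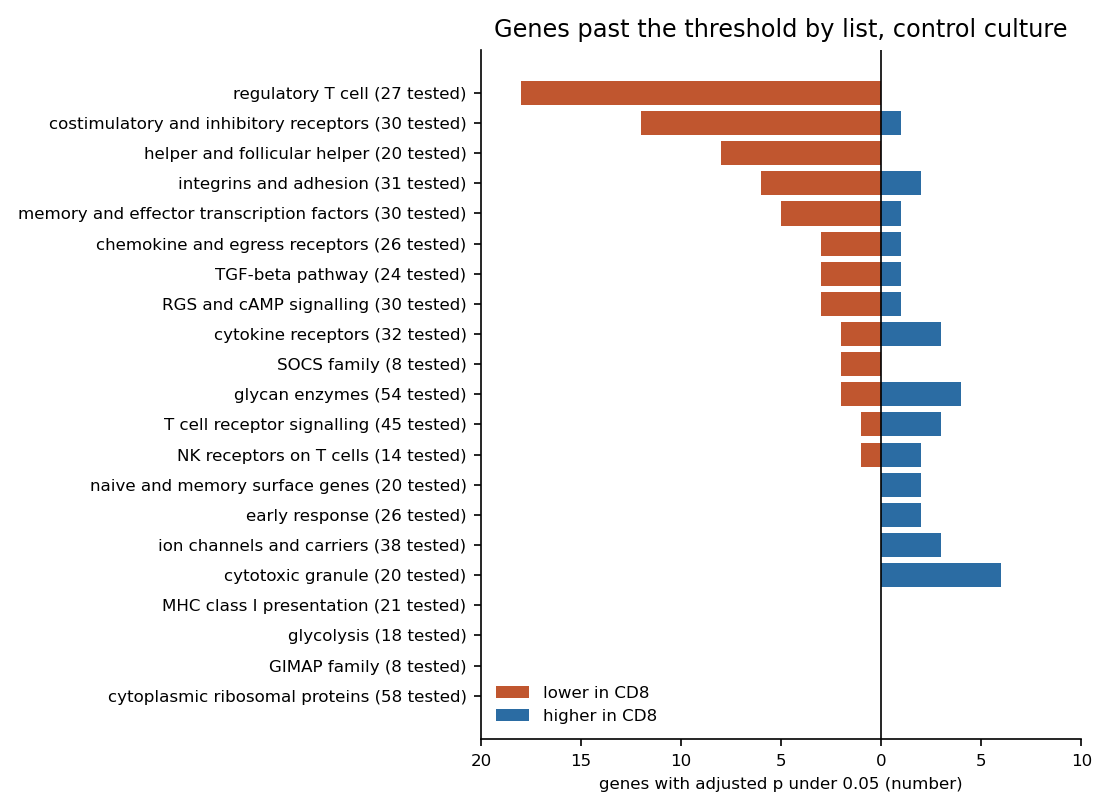
Number of genes past the threshold in 21 gene lists, lower in CD8 to the left of 0 (orange) and higher in CD8 to the right (blue), with the number tested in each list in parentheses. Regulatory T cell genes reach 18 lower members and cytotoxic granule genes 6 higher; 4 lists at the foot have none. Lists share members.

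CD8 T cells had higher levels of part of the cytotoxic granule genes. Of 20 tested, 6 were higher, 0 were lower, and the median difference was 0.10. Nkg7, a granule membrane protein needed for degranulation, read 7.28, 7.57 and 7.61 on the CD4 arrays and 10.03, 10.34 and 10.14 on the CD8 arrays, 6.43-fold higher (2.68 ± 0.21, adjusted p = 3.64e-06). Ctsw, a cysteine protease of killer cells, read between 7.59 and 8.40 on the CD4 arrays and 10.21, 10.40 and 10.35 on the CD8 arrays (2.32 ± 0.16, adjusted p = 1.44e-06). Cst7, the cystatin that inhibits such proteases, read 6.42, 6.11 and 6.19 on the CD4 arrays and 7.88, 8.05 and 8.17 on the CD8 arrays (1.79 ± 0.12, adjusted p = 9.72e-07). All CD8 arrays stood well above all CD4 arrays for these 3 genes. Crtam, an adhesion receptor of activated killer cells, differed by 1.62, and Lyst, a regulator of lysosome and granule size, by 0.94. Prf1, which encodes perforin, the pore-forming protein, read 7.26, 7.33 and 7.51 on the CD4 arrays and 8.03, 8.09 and 8.14 on the CD8 arrays, a smaller difference of 0.72 ± 0.14 (adjusted p = 0.0109). Prf1 lost its call without each control array in turn except CD4 array 3 and CD8 array 1 (adjusted p = 0.0503 to 0.0565). Beside these genes, 10 of 12 tested NK cell markers had a difference above 0, with a median of 0.16, and 3 passed (Nkg7, Prf1 and Eomes). Ncr1 and Klrb1c, which define NK cells, differed by -0.25 and 0.17 and did not pass. The part of NK cells in the result was not tested.

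Granzymes and the death ligand did not pass the threshold. Gzmb, which encodes granzyme B, read 6.44, 8.12 and 8.35 on the CD4 arrays and 7.13, 8.45 and 8.86 on the CD8 arrays (0.51 ± 0.58, adjusted p = 0.91), and Gzma read 4.54, 5.86 and 6.07 on the CD4 arrays and 5.09, 5.87 and 5.94 on the CD8 arrays (0.14 ± 0.42, adjusted p = 0.972); both were picked after their values were seen. The lineages overlapped for both, and array 1 was the lowest of its group in each lineage, as it was for B cell markers. With the B cell marker mean as a covariate the differences were 0.96 for Gzmb (adjusted p = 0.00595) and 0.46 for Gzma (adjusted p = 0.197), and the granule genes gave 7 higher and 1 lower. Fasl, the ligand of the death receptor Fas, read 6.06, 5.18 and 5.33 on the CD4 arrays and 4.88, 4.54 and 4.99 on the CD8 arrays, lower in CD8 on every array but not past the threshold (-0.72 ± 0.22, adjusted p = 0.145). The granule fusion genes Stx11 (-0.46) and Rab27a (-0.40), the TRAIL gene Tnfsf10 (0.38), the granzyme-processing protease gene Ctsc (0.31) and the granule proteoglycan gene Srgn (-0.14) did not pass.

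Receptors shared with NK cells and effector cytokines divided between the lineages. Of 14 tested NK receptor genes 2 were higher in CD8 and 1 was lower, with a median of 0.17. Klrd1 (CD94), the common partner chain of NKG2 receptors, read 7.58, 6.77 and 7.24 on the CD4 arrays and 10.10, 9.55 and 9.66 on the CD8 arrays (2.58 ± 0.21, adjusted p = 5.03e-06), and Cd226 is given above. Klrg1, a receptor of late effector and some regulatory T cells, was lower in CD8, at 5.50, 5.98 and 5.92 on the CD4 arrays and 4.44, 4.71 and 5.05 on the CD8 arrays (-1.07 ± 0.16, adjusted p = 0.00226). Klrc1, the NKG2A partner of CD94, read 4.54, 5.15 and 5.46 on the CD4 arrays and 5.87, 5.86 and 6.25 on the CD8 arrays and did not pass (0.94 ± 0.24, adjusted p = 0.0649). Hcst (0.60), Cd96 (0.33), Klrk1 (0.25), Cd160 (0.18) and Klrb1f (0.17) did not pass.

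Of 17 tested effector cytokine and chemokine genes 1 was higher and 2 were lower in CD8, with a median of -0.15. The chemokine gene Ccl5 (RANTES) read 8.01, 8.11 and 8.26 on the CD4 arrays and 10.74, 10.62 and 10.48 on the CD8 arrays, 5.62-fold higher (2.49 ± 0.15, adjusted p = 4.78e-07). Lta, which encodes lymphotoxin alpha, read 7.12, 7.30 and 7.27 on the CD4 arrays and 6.33, 6.63 and 6.75 on the CD8 arrays (-0.66 ± 0.13, adjusted p = 0.0144), and Tnfsf11, the RANK ligand gene, differed by -0.80 at levels under the background gauge in both lineages. Xcl1 (0.74), Ccl4 (0.37), Tnf (-0.28), Csf1 (-0.52), Il13 (-0.25) and Il5 (-0.21) did not pass. Lta lost its call without CD4 array 2 (adjusted p = 0.0688), CD4 array 3 (0.0667) or CD8 array 1 (0.0808) and Tnfsf11 without each control array in turn except CD4 array 3 and CD8 array 1 (adjusted p = 0.0639 to 0.117).

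**Figure D3:**
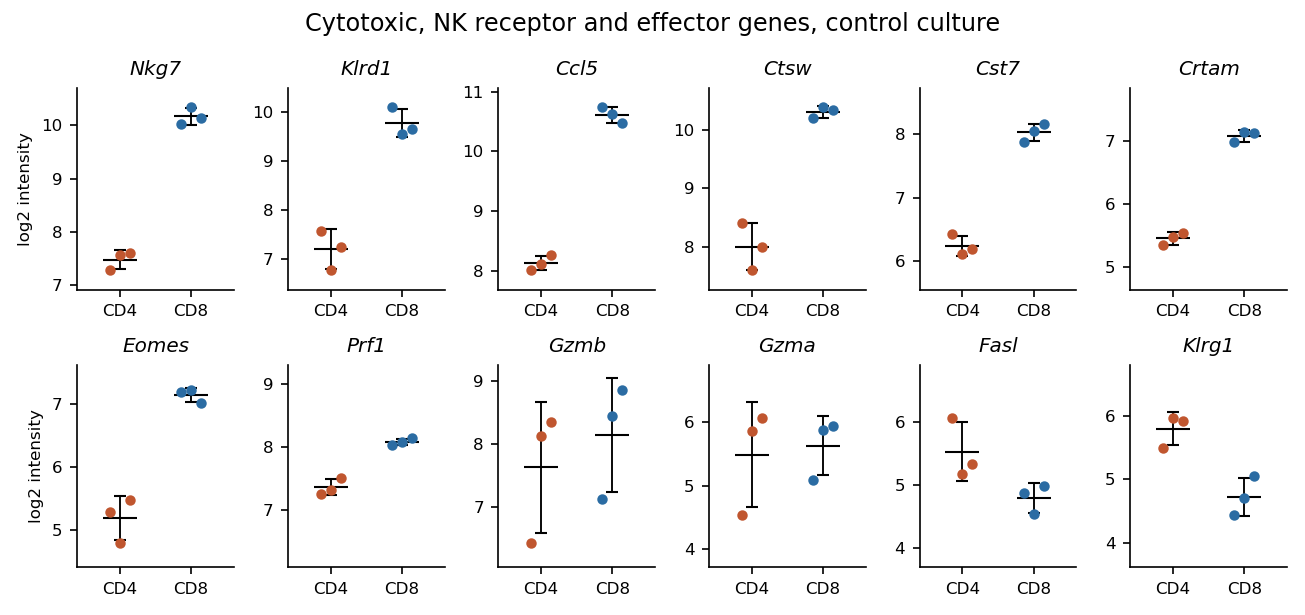
Log2 intensity (vertical axis, a separate scale for each gene) of 12 cytotoxic, NK receptor and effector genes on the 3 CD4 (orange) and 3 CD8 (blue) arrays of control culture; points are arrays, black lines the mean ± SD. Nkg7, Klrd1, Ccl5 and Ctsw part the lineages by more than 2 log2 units, Gzmb and Gzma overlap, and Klrg1 is lower in CD8; Fasl lies lower on every CD8 array but did not pass the threshold.

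RUNX factors bind the core TGTGGT, and the windows of 3 granule genes that were higher in CD8 and of Trat1, which was lower, are shown because the same core stands in all 4; they were picked after the matches were seen. Each is 60 bases within the 250 bases before the RefSeq gene start (build GRCm38.p6), read along the strand of the gene, with the core or its reverse complement ACCACA in capitals.
Nkg7: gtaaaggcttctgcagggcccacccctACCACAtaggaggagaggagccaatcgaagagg
Cst7: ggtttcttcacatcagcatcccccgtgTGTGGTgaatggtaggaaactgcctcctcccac
Prf1: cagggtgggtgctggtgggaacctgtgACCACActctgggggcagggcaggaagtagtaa
Trat1: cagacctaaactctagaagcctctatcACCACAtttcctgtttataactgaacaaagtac
They lie at chr7:43437028-43437087 (+ strand), chr2:150570200-150570259 (+ strand), chr10:61297679-61297738 (+ strand) and chr16:48772106-48772165 (- strand). The core, on either strand within 250 bases before a gene start, was present in 24.6% of 114 genes higher in CD8. It was present in 15% of 100 lower genes, 13.1% of 11169 tested genes and 15.9% of all 27025 genes with a promoter in the table. A gene counted if any of its listed starts had a match, so genes with more starts had more chances to match. A match of these letters is a description and not a measured binding site.

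Transcription factors of memory and effector cells were lower in CD8 in 5 of 30 cases and higher in 1, with a median of -0.10. Eomes, a T-box factor of CD8 memory and NK cells, was the higher one, at 5.29, 4.80 and 5.48 on the CD4 arrays and 7.19, 7.22 and 7.01 on the CD8 arrays (1.95 ± 0.19, adjusted p = 5.11e-05). Its relative Tbx21 (T-bet) read 5.54, 5.29 and 5.56 on the CD4 arrays and 5.85, 5.75 and 5.62 on the CD8 arrays, and although the lineages did not overlap the difference was small and did not pass (0.28 ± 0.13, adjusted p = 0.537). Besides Foxp3, Maf, Ikzf2 and Prdm1, the fifth lower gene was Zbtb16 (PLZF), the factor of innate-like T cells, at 5.81, 5.60 and 5.37 on the CD4 arrays and 4.67, 4.47 and 4.72 on the CD8 arrays (-0.97 ± 0.17, adjusted p = 0.0054). Ikzf4 (-0.55), Bcl6 (-0.69), Batf (-0.37), Batf3 (-0.43), Rora (-0.33) and the aryl hydrocarbon receptor gene Ahr (-0.43) did not pass.

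Receptors for homing and adhesion parted the lineages in both directions. Of 26 tested chemokine and egress receptors 1 was higher in CD8 and 3 were lower, with a median of -0.16. Ccr9, which guides T cells to the small intestine, read 4.69, 5.36 and 5.24 on the CD4 arrays and 7.46, 7.38 and 7.05 on the CD8 arrays (2.20 ± 0.22, adjusted p = 5.88e-05). Ccr4 read 5.33, 5.83 and 5.53 on the CD4 arrays and 3.63, 3.90 and 4.39 on the CD8 arrays and was at least 1.38-fold higher in CD4. Ccr2, a receptor for inflammatory chemokines, read 5.67, 5.39 and 5.78 on the CD4 arrays and 4.62, 4.87 and 4.89 on the CD8 arrays, at least 1.43-fold higher in CD4. All CD8 arrays of both genes lay under the background gauge. Gpr83, the orphan receptor given above, was also held in the list and was the third lower member. Cxcr1, which the list does not hold, was lower as well (-1.44 ± 0.12, adjusted p = 7.55e-06). The residency receptor gene Cxcr6 (0.86), Cxcr4 (0.52), Cxcr3 (0.47), Ccr6 (-0.55), Ccr8 (-0.74) and P2ry10 (-0.37) did not pass.

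Of 31 tested integrin and adhesion genes 2 were higher in CD8 and 6 were lower, with a median of -0.08. Itgae (CD103), the integrin chain that binds E-cadherin on epithelium, read 4.47, 4.41 and 4.39 on the CD4 arrays and 7.29, 6.94 and 7.16 on the CD8 arrays, at least 4.1-fold higher (2.70 ± 0.18, adjusted p = 7.04e-07). All 3 CD4 arrays of Itgae lay under the background gauge. The tetraspanin gene Cd81, a part of the B cell co-receptor that T cells also carry, read 9.06, 9.57 and 9.48 on the CD4 arrays and 6.53, 8.08 and 8.10 on the CD8 arrays (-1.80 ± 0.40, adjusted p = 0.031). CD8 array 1 stood apart from the other 2 CD8 arrays by more than 1.5 log2 units, the same array that was lowest for B cell markers. With the B cell marker mean as a covariate the difference of Cd81 was -1.51 (adjusted p = 0.000103). Its relative Cd9 (-0.78, with a dimmer second probe set at -0.30), Pvr, and the integrin chains Itgb3 (-0.88), Itga6 (-0.61) and Itgb8 were the other lower members. Itgb1 (-0.62), Pecam1 (-0.31), Selplg (0.31), Sdc4 (-0.69), Icam1 (0.28) and Cd44 (-0.22) did not pass. Left-out arrays gave 2 to 4 lower members in place of 6. Cd81 lost its call without CD4 array 2 (adjusted p = 0.14), CD4 array 3 (0.125) or CD8 array 1 (0.103), Cd9 without each control array in turn except CD4 array 2 and CD8 array 3 (adjusted p = 0.0509 to 0.0823), Itgb3 without CD8 array 1 (adjusted p = 0.063), and Itga6 without each control array in turn except CD4 array 2 (adjusted p = 0.0767 to 0.156).

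Cytokine receptors differed at single chains in both directions. Of 32 tested, 3 were higher in CD8 and 2 were lower, with a median of 0.06. These are 15.6% of the list, against 1.95% of all genes tested. Eng (endoglin), a co-receptor for TGF-beta family ligands known best from blood vessels, read 4.92, 4.91 and 4.61 on the CD4 arrays and 7.91, 7.66 and 7.30 on the CD8 arrays, at least 5.78-fold higher (2.81 ± 0.25, adjusted p = 1.64e-05). Il10rb, a chain shared by receptors of the interleukin-10 family, read 8.30, 7.83 and 7.90 on the CD4 arrays and 8.99, 8.80 and 8.92 on the CD8 arrays (0.89 ± 0.13, adjusted p = 0.00204). The interferon receptor gene Ifnar2 differed by 0.52. The decoy receptor gene Il1r2 was lower, at 5.02, 5.48 and 5.61 on the CD4 arrays and 3.87, 4.12 and 4.34 on the CD8 arrays (-1.26 ± 0.20, adjusted p = 0.00327), as was Il2ra. Il18rap (0.50), Il27ra (0.40), Il12rb2 (0.74), Il1rl2 (-0.65), Tgfbr3 (-0.70) and Il6st (0.51) did not pass. Ifnar2 lost its call without each control array in turn except CD4 array 1 (adjusted p = 0.0646 to 0.143).

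Of 8 tested genes of the SOCS family, which feed back on cytokine signalling, 2 were lower in CD8 and 0 were higher, with a median of -0.04. Socs2 read 5.87, 6.40 and 6.10 on the CD4 arrays and 4.36, 4.74 and 4.24 on the CD8 arrays (-1.68 ± 0.19, adjusted p = 0.000163), and Cish read 5.91, 5.88 and 6.08 on the CD4 arrays and 4.96, 5.17 and 5.25 on the CD8 arrays (-0.83 ± 0.13, adjusted p = 0.00336). Dimmer second probe sets differed by -0.32 for Socs2 and -0.26 for Cish. The other 6 members lay between 0.16 (Socs3) and -0.10 (Socs6) and did not pass.

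The wider TGF-beta pathway had 24 tested genes, of which Eng was higher in CD8 and Lrrc32, Itgb8 and the type I receptor gene Acvrl1 (-0.46) were lower, with a median of -0.08. Acvrl1 had a mean under the background gauge. The signalling receptor gene Tgfbr1 was among the members that did not pass (-0.18), as were Skil (-0.57), Smurf2 (-0.14), Ski (-0.36), Tgfb3 (-0.16) and Tgfbr3 (-0.70). Left-out arrays gave 1 or 2 lower members. Acvrl1 lost its call without each of the 6 arrays in turn (adjusted p = 0.112 to 0.192).

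T cell receptor signalling genes differed at single members. Of 45 tested genes 3 were higher in CD8 and 1, Trat1, was lower, with a median of 0.11. These are 8.89% of the list, against 1.95% of all genes tested. Sla2, an adaptor that dampens receptor signalling, read 8.86, 8.63 and 8.64 on the CD4 arrays and 9.67, 9.50 and 9.70 on the CD8 arrays (0.92 ± 0.14, adjusted p = 0.00204). The adaptor gene Grap2 (GADS) read 9.38, 9.26 and 9.28 on the CD4 arrays and 9.98, 9.92 and 9.86 on the CD8 arrays (0.62 ± 0.12), and Ptpn22, a phosphatase that restrains receptor signalling, read between 9.88 and 10.19 on the CD4 arrays and 10.60, 10.63 and 10.57 on the CD8 arrays (0.58 ± 0.11). The lineages did not overlap for any of the 3, as for all 280 genes past the threshold, and the differences were under 1 log2 unit. Themis (0.56), Cd28 (-0.55), Cd2 (-0.42), Sit1 (-0.43), Cd5 (-0.56) and Ubash3b (0.35) did not pass. Left-out arrays gave 1 to 4 higher members, 4 without CD4 array 1. Grap2 lost its call without each control array in turn except CD4 array 1 and CD8 array 3 (adjusted p = 0.0621 to 0.0724) and Ptpn22 without each control array in turn except CD4 array 1 (adjusted p = 0.0535 to 0.0731).

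Among RGS and cAMP signalling genes 1 of 30 tested was higher in CD8 and 3 were lower, with a median of 0.03. Rgs1, a regulator of G protein signalling, read 6.36, 6.70 and 7.20 on the CD4 arrays and 5.35, 6.10 and 5.75 on the CD8 arrays (-1.02). Its relative Rgs2 read 8.30, 7.88 and 8.25 on the CD4 arrays and 7.03, 7.36 and 7.26 on the CD8 arrays (-0.93), and both were lower in CD8. P2rx7, the ATP-gated channel given with the helper genes, was also held in the list and was the third. The gene of the phosphodiesterase Pde7a, which breaks down cAMP, was higher (0.83 ± 0.13, adjusted p = 0.00295). Dimmer second probe sets of Rgs2 and Pde7a differed by -0.07 and 0.40. Rgs2 lost its call without CD4 array 1 (adjusted p = 0.0577), CD4 array 3 (0.0667) or CD8 array 1 (0.0724).

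Of 38 tested ion channels and carriers 3 were higher in CD8 and 0 lower, with a median of 0.16. Of 264 tested solute carrier genes 5 were higher and 0 lower, with a median of 0.00; these 1.89% are near the 1.95% called over all genes. With the B cell marker mean as a covariate 8 solute carriers were higher and 3 lower. Slc6a19, a neutral amino acid carrier known best from gut and kidney, read 4.36, 4.53 and 4.83 on the CD4 arrays and 7.90, 7.45 and 7.73 on the CD8 arrays, at least 6.06-fold higher (3.12 ± 0.18, adjusted p = 3.92e-07). The iron carrier gene Slc11a2 read 6.55, 6.38 and 6.72 on the CD4 arrays and 7.61, 7.46 and 7.34 on the CD8 arrays (0.92 ± 0.15, adjusted p = 0.00287). Kcna3 (Kv1.3), the main voltage-gated potassium channel of T cells, averaged 8.25 ± 0.11 on the CD4 arrays and 8.91 ± 0.11 on the CD8 arrays (mean ± SD, n = 3) (0.66 ± 0.15, adjusted p = 0.0309). The other solute carriers past the threshold were the mitochondrial ADP/ATP carrier gene Slc25a4 (0.92), the vesicular nucleotide carrier gene Slc17a9 (0.89) and Slc35f2 (0.84). Slc12a7 (1.10), Abcb1a (0.69), Kcnj8 (0.59), Slc16a5 (0.80), Abca1 (0.52) and Slc1a5 (0.37) did not pass. Kcna3 lost its call without each of the 6 arrays in turn (adjusted p = 0.0594 to 0.144) and Slc17a9 without each control array in turn except CD4 array 1 and CD8 array 3 (adjusted p = 0.0603 to 0.0747).

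Enzymes that build or trim surface glycans differed at single members. Of 54 tested, 4 were higher in CD8 and 2 were lower, with a median of 0.06. These are 11.1% of the list, against 1.95% of all genes tested. St8sia6, which adds sialic acid to sialic acid, read 9.72, 9.23 and 9.26 on the CD4 arrays and 6.17, 6.05 and 6.29 on the CD8 arrays, 9.41-fold higher in CD4 (-3.23 ± 0.16, adjusted p = 6.65e-08). St8sia4, a polysialyltransferase, read 8.43, 8.29 and 8.43 on the CD4 arrays and 7.72, 7.68 and 7.88 on the CD8 arrays (-0.63 ± 0.12, adjusted p = 0.012). The sialyltransferase gene St3gal3 was higher in CD8 (0.62), as were the galactosyltransferase gene B4galt5 (0.71), the chondroitin sulfotransferase gene Chst11 (1.16) and Cmah (0.60), which hydroxylates sialic acid in mice. B4galnt4 (-0.53), B4galt1 (0.65), B4galnt1 (0.80), St3gal2 (-0.50), Ext1 (-0.53) and Chst10 (0.33) did not pass. Left-out arrays gave 1 to 3 higher and 1 or 2 lower members. St8sia4 lost its call without each control array in turn except CD4 array 2 and CD8 array 3 (adjusted p = 0.0518 to 0.0731), St3gal3 without CD8 array 1 (adjusted p = 0.0559), B4galt5 without each control array in turn except CD4 array 2 (adjusted p = 0.0634 to 0.144), and Cmah without each control array in turn except CD4 array 1 (adjusted p = 0.0879 to 0.197).

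Surface genes of naive and memory cells gave 2 of 20 tested higher in CD8 and 0 lower, with a median of 0.24. Ly6c2, a Ly6C gene, averaged 8.05 ± 0.11 on the CD4 arrays and 10.32 ± 0.30 on the CD8 arrays (mean ± SD, n = 3) (2.27 ± 0.22, adjusted p = 4.69e-05). Its near-identical neighbour Ly6c1 read 4.59, 5.39 and 5.55 on the CD4 arrays and 3.86, 4.04 and 4.57 on the CD8 arrays, in the other direction and not past the threshold (-1.02 ± 0.27, adjusted p = 0.0905), and probes may not tell the pair apart. Dapl1 read 8.27, 7.59 and 7.57 on the CD4 arrays and 9.45, 8.96 and 9.01 on the CD8 arrays (1.33 ± 0.26, adjusted p = 0.0145). Among T cell markers Thy1 was higher in CD8, at 9.76, 9.35 and 9.13 on the CD4 arrays and 10.47, 10.42 and 10.40 on the CD8 arrays (1.02 ± 0.18, adjusted p = 0.00563), while 8 of the 9 tested did not pass. Of 23 survival and death genes the antiapoptotic gene Bcl2 alone passed, at 8.15, 7.72 and 7.34 on the CD4 arrays and 8.83, 9.22 and 8.85 on the CD8 arrays (1.23 ± 0.20, adjusted p = 0.00297), with a list median of -0.09; a dimmer second probe set of Bcl2 differed by 0.51. Of 26 early response genes Myc (0.74) and Ier3 (0.68) were higher in CD8 and 0 were lower, with a median of -0.05. Dapl1 lost its call without CD4 array 2 (adjusted p = 0.0873), CD4 array 3 (0.0837) or CD8 array 1 (0.085), Myc without CD4 array 1 (adjusted p = 0.0691), CD4 array 3 (0.072) or CD8 array 2 (0.0995), and Ier3 without each control array in turn except CD4 array 2 (adjusted p = 0.0574 to 0.106).

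Other groups showed few calls or none. Of 21 MHC class I presentation genes, 18 glycolysis genes, 8 GIMAP genes, 20 DUSP phosphatase genes and 58 cytoplasmic ribosomal protein genes tested, 0 passed in each, and their medians were 0.07, 0.05, -0.28, -0.04 and 0.04. With 1.95% called over all genes, lists this short can hold no call, so these counts do not show that the groups are alike. In limma 2, 4, 5, 2 and 0 of them had an unadjusted p under 0.05, and 7 of the 8 GIMAP genes were below 0. Of 23 interferon-stimulated genes Ifit2 was lower in CD8 (-0.79), and of 30 cell cycle genes Cdk2 was lower (-0.54). Of 20 tested antigen receptor segments the alpha chain segment Trav7-4 was lower, at 8.62, 8.49 and 8.55 on the CD4 arrays and 7.93, 8.16 and 8.06 on the CD8 arrays (-0.51 ± 0.12, adjusted p = 0.042), and 18 of the 20 had a difference below 0, with a median of -0.27. Other probe sets of Trav7-4 differed by -0.15 and -1.43. The segments averaged 6.29, 6.88 and 6.73 on the CD4 arrays and 5.85, 6.59 and 6.66 on the CD8 arrays, lowest on array 1 of each like the B cell markers. Their median was 0.04 with the B cell marker mean as a covariate and 0.11 without CD8 array 1, so the direction turned. Among 6 tested genes of gamma delta and innate-like T cells Zbtb16 alone passed, and among 5 platelet genes Itgb3. Ifit2 lost its call without each control array in turn except CD4 array 2 (adjusted p = 0.0627 to 0.157), Cdk2 without each control array in turn except CD4 array 1 (adjusted p = 0.0618 to 0.15), and Trav7-4 without each of the 6 arrays in turn (adjusted p = 0.0737 to 0.196).

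Among the largest differences were genes that belong to none of the groups above. Bend4, a BEN domain protein, read 4.89, 5.03 and 5.11 on the CD4 arrays and 7.93, 8.06 and 7.92 on the CD8 arrays, at least 7.34-fold higher in CD8 (2.96 ± 0.19, adjusted p = 5.56e-07), while a dimmer second probe set differed by 0.53. Nedd4, a ubiquitin ligase, read 5.97, 6.21 and 6.17 on the CD4 arrays and 7.95, 8.25 and 8.23 on the CD8 arrays (2.03 ± 0.15, adjusted p = 1.65e-06). Dnajc15, a cochaperone of the mitochondrial inner membrane, read 6.90, 6.73 and 6.99 on the CD4 arrays and 8.92, 8.64 and 8.91 on the CD8 arrays (1.95 ± 0.13, adjusted p = 7.04e-07). Fam241a was also higher (2.29). On the CD4 side stood Tmem64 at 8.85, 8.51 and 8.64 on the CD4 arrays and 6.24, 7.04 and 6.78 on the CD8 arrays (-1.98 ± 0.23, adjusted p = 0.00018), the hyaluronan-binding protein gene Itih5 (-1.92) and Irak3 (-1.72), an inhibitor of Toll-like receptor signalling. That the lineages do not overlap was a condition for naming these 7 genes. Each kept its call with every array left out.

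Of 247 small RNA genes tested, 2 were higher and 2 were lower in CD8. These 1.62% lie below the 1.95% called over all genes. The array measures the transcript around a miRNA and not the mature miRNA, whose sequences (RefSeq, GRCm38.p6) are shown because 2 of the 4 genes, Mir23a and Mir27a, lie side by side on chromosome 8. Capitals mark the seed, bases 2 to 8, which pairs with target mRNAs, and no seed is shared between these mature forms.
mmu-miR-23a-3p: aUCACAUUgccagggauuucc
mmu-miR-27a-3p: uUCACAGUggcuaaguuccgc
mmu-miR-23a-5p: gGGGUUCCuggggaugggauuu
mmu-miR-27a-5p: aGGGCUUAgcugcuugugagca
mmu-miR-687: cUAUCCUGgaaugcagcaauga
The 3p forms lie at chr8:84208563-84208583 and chr8:84208727-84208747, the 5p forms at chr8:84208527-84208548 and chr8:84208685-84208706, all on the + strand, and miR-687 at chr14:73206808-73206829 on the - strand. Mir27a read 4.99, 5.33 and 5.29 on the CD4 arrays and 5.74, 6.25 and 6.10 on the CD8 arrays (0.83 ± 0.15, adjusted p = 0.00801), and Mir23a read 4.55, 4.39 and 3.98 on the CD4 arrays and 5.29, 5.59 and 5.35 on the CD8 arrays (1.10 ± 0.25, adjusted p = 0.0387). Both were higher on every CD8 array. Mir687 read 5.62, 5.21 and 5.18 on the CD4 arrays and 4.53, 4.44 and 4.45 on the CD8 arrays (-0.86 ± 0.14, adjusted p = 0.00295) and lies inside the span of Rb1, the retinoblastoma gene, which was lower too (-1.07 ± 0.17, adjusted p = 0.00304). Mir3060 was the other lower one (-0.67). Mir23a, Mir687 and Mir3060 had means under the background gauge. Mir27a lost its call without CD8 array 2 (adjusted p = 0.0557), Mir23a without each of the 6 arrays in turn (adjusted p = 0.05 to 0.199), and Mir3060 without each of the 6 arrays in turn (adjusted p = 0.0563 to 0.219).

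Differing genes stood beside each other at several places in the genome. In the RefSeq gene order of GRCm38.p6, 21 of 14284 pairs of adjacent tested genes had both members past the threshold, 19 of them in the same direction. Of the 14307 tested genes placed in that order 279 had passed. Whether the pairs are more than random placement would give was not tested. Pairs higher in CD8 included Cd8b1 with Cd8a, Ifnar2 with Il10rb, and Dnajc15 with Epsti1 (1.59). Kcna3 stood in a run with AI504432 (0.83), a noncoding RNA gene, and Kcna2 (1.78), another potassium channel gene. Pairs lower in CD8 included Ctla4 with Icos, Tnfrsf4 with Tnfrsf18, Rgs2 with Rgs1, Gpr83 with Izumo1r, and the inflammatory caspase genes Casp1 (-0.96) with Casp4 (-1.24). The opposed pairs were Bcl2, higher in CD8, with the phosphatase gene Phlpp1 (-0.74), and Sla2, higher, with Ndrg3 (-0.82). In 2 of the pairs the gene spans overlap, and signal there may be shared. The neighbours that belong to no group were named after their values were seen.

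The same lineages in linoleic acid culture gave a second set of arrays, none of them shared with control culture. Both cultures were fitted together with 1 spread per gene, so a gene with a small spread tends to pass in both. On principal component 1, the main axis of variation, arrays numbered 1 scored -23.7 to -14.83 over both cultures. The calls of the cultures are thus not independent, and their overlap is not a separate replication. In linoleic acid culture 291 genes passed (2.03%), of which CD8 T cells were the higher for 103 and the lower for 188. CD8 linoleic acid array 3 stood apart on that component, at 36.12 with the next highest array at 14.88. T cell receptor signalling genes averaged 8.77, 8.62 and 8.39 on the 3 CD8 linoleic acid arrays. Without array 3 of these, 347 genes passed in control culture in place of 280. Its part in the linoleic acid counts was not tested. Of the 280 genes called in control culture 278 had the same direction, 265 of them with an unadjusted p under 0.05, and 194 passed again, which is 69.3% of the control calls and 66.7% of the linoleic acid calls. The exceptions in direction were Ung, a uracil-DNA glycosylase gene (0.50 in control, -0.15 in linoleic acid), and Tnfsf4, the OX40 ligand gene (-0.87 and 0.10), both picked after their values were seen. Foxp3 differed by -3.16, Cd40lg by -3.62, St8sia6 by -3.28, Nkg7 by 2.85 and Ccl5 by 2.42 in linoleic acid culture. Of the 147 genes higher in CD8 in control culture 125 had a smaller difference in linoleic acid, and of the 133 lower genes 71 did. Taken from the other side, 40 of the 103 genes called higher in linoleic acid and 141 of the 188 called lower had a smaller difference in control culture.

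The difference between the 2 lineage differences was tested directly. Of 14323 genes 0 passed in limma (smallest adjusted p = 0.953), and 336 had an unadjusted p under 0.05. Among the 280 genes 19 had an unadjusted p under 0.05. Eomes differed by 1.95 in control and 1.32 in linoleic acid culture (unadjusted p of the difference 0.0406), Eng by 2.81 and 2.07 (0.0578), and Itgae by 2.70 and 2.22 (0.0725). None of these contrasts passed after adjustment, so no gene was shown to part the lineages in control culture alone.

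**Figure D4:**
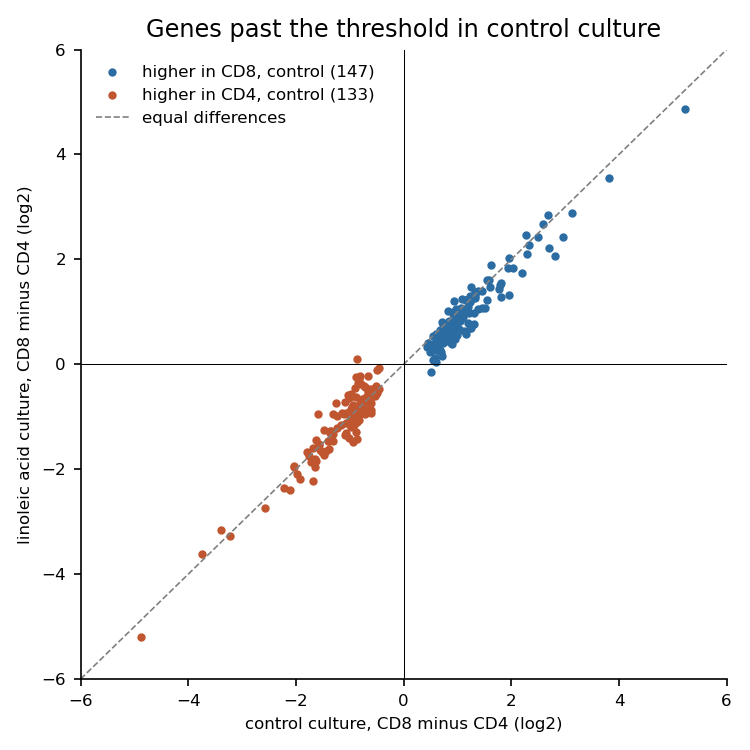
CD8 minus CD4 difference (log2) of the 280 genes past the threshold in control culture, in control culture (horizontal axis) and in linoleic acid culture (vertical axis); each point is a gene, blue higher and orange lower in CD8 in control culture, and the dashed line marks equal differences. The genes follow the line, 278 of them with the same direction in both; they were chosen on the horizontal values.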

How the data were processed

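The deposited table holds log2 intensities of 41345 probe sets on 12 arrays. Per the submitters' processing notes the authors used RMA, which corrects background, normalizes quantiles and summarizes probes. The software and its version, the summary level and the build were not given in the sources used here. Values were used as deposited.

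Of the probe sets 23521 carried 1 gene symbol in the platform annotation, 1814 several and 16010 none, and only the first were named. Of 22180 genes 1082 had several probe sets, of which the brightest on average over all 12 arrays was used. A filter at the 40th percentile of the means of all probe sets (log2 4.28) left 14323 genes to test. The annotation's gene identifiers matched the RefSeq table of GRCm38.p6 for 23328 probe sets.

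Group means of all 4 groups were fitted on the 12 arrays in limma 3.58.1 (R 4.3.3; lmFit and eBayes, two-sided moderated test, no replicate block; 8 residual degrees of freedom and 5.67 from the prior), with the contrasts CD8 minus CD4 in each culture and the difference between these. Sharing 1 spread over 4 groups steadies an estimate that 3 arrays a group give poorly, and the number of arrays limits the precision. An exact permutation test of 3 against 3 arrays was not used because it cannot go below p = 0.1. The fit was tested on simulated data.

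The members and the gene lists were chosen with earlier results of these data known, so counts by list describe these arrays. Named genes were Cd4, Cd8a, Cd8b1, Zbtb7b and Runx3, the 15 largest differences to each side among genes past the threshold with no overlap of arrays (predicted genes, receptor segments, chemosensory receptors and small RNAs left out), and of each list its members past the threshold and up to 6 others with the smallest p, by values only. Alternatives were the replicate number as a block, other filters, scalings and probe set rules, array weights, a mean-variance trend, the B cell marker mean as a covariate, the 6 control arrays alone, each array left out, and, added after seeing the data, all arrays of 1 number left out.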

Additional observations from a re-analysis of the deposited data

How the results depend on the processing

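The 280 genes past the threshold in control culture stayed within 1.5 times under 8 single changes of filter, scaling, probe set rule, array weights (whose fit stopped before full convergence), trend or arrays fitted, at 223 to 411 genes. They became 477 with the B cell marker mean as a covariate and 176 to 223 with each control array left out. With each linoleic acid array left out they became 237 to 347, the most without CD8 linoleic acid array 3. Without the arrays of 1 number in all groups, chosen after seeing the data, they became 230 (number 1), 65 (number 2) and 146 (number 3); fewer arrays were fitted. The test of the difference between cultures gave 0 genes in limma in each of its 24 alternatives, with 108 to 1678 at an unadjusted p under 0.05. The labels number the arrays without saying what a number marks, so the main fit did not take the numbers as pairs. Deviations of same-numbered CD4 and CD8 control arrays from their group means correlated at 0.54 (number 1), -0.01 (2) and 0.42 (3). CD4 array 1 with CD8 array 3 gave -0.51, and CD4 array 3 with CD8 array 1 gave -0.49. On principal component 1, the main axis of variation (33.2% of variance), arrays numbered 1 scored -23.7 to -14.83 over both cultures. The others scored -7.158 to 36.12, with CD8 linoleic acid array 3 at the top and the next highest array at 14.88. B cell markers averaged 6.50 to 6.98 on arrays numbered 1 and 7.74 to 8.31 on the others. What same-numbered arrays share was not tested, and the main p-values make no allowance for it. With the replicate number as a block 630 genes passed, all 280 among them, and 567 did with the block on the 6 control arrays alone. The block called 6 of 16 B cell markers lower in CD8, where 0 passed without it, and 10 solute carriers higher and 4 lower in place of 5 and 0. Array 2 of each lineage correlated best with number 3 of the other (0.21 and 0.16).

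Of 123 named genes past the threshold 47 kept their call under each of the 20 alternatives that tested them. The alternative limited to genes above the background gauge did not test those with a mean under it. None of the 123 reversed. Direction reversed for 5 named genes that had not passed: Gzma (0.14) became -0.33 without CD4 array 1, -0.01 without CD8 array 3 and -0.06 without the arrays numbered 1, ranging up to 0.43 over single arrays left out. Gzmb (0.51) ranged from -0.09 to 1.02, Klrb1c (0.17) from -0.07 to 0.36, Ncr1 (-0.25) from -0.45 to 0.07 with 0.06 under the B cell covariate, and Tgfb3 (-0.16) from -0.29 to 0.07. The cause was not tested. Signal over background limits genes near log2 5.09, and no detection calls were used here.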

Other observations

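Further genes past the threshold belong to none of the gene lists used and were named after their values were seen. Cd7, a surface receptor of T and NK cells, read 9.24, 8.44 and 8.31 on the CD4 arrays and 10.43, 10.59 and 10.40 on the CD8 arrays (1.81 ± 0.23, adjusted p = 0.000521). The peptidase gene Dpp4 (CD26) was higher in CD8 too (1.08 ± 0.13, adjusted p = 0.000302), as were Cracr2a (1.52 ± 0.19), which encodes a regulator of store-operated calcium entry, and the calcium channel gene Orai3 (0.61 ± 0.14). Orai3 lost its call without each of the 6 arrays in turn (adjusted p = 0.0674 to 0.227). Gria3, a glutamate receptor subunit best known from neurons, read 4.93, 4.84 and 5.04 on the CD4 arrays and 6.74, 6.73 and 6.72 on the CD8 arrays, at least 3.11-fold higher in CD8 (1.80 ± 0.13, adjusted p = 1.44e-06). The spread of its 3 CD8 arrays was 0.01 (SD) beside that gap.

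Genes of metabolic enzymes were among them, on either side. Cers6, a ceramide synthase gene, read 7.90, 7.42 and 7.71 on the CD4 arrays and 6.13, 6.09 and 6.34 on the CD8 arrays (-1.48 ± 0.15, adjusted p = 4.53e-05), and the sphingomyelin synthase gene Sgms1 was lower in CD8 as well (-0.73 ± 0.12). The fatty acid elongase gene Elovl7 was higher (1.31 ± 0.17), with the CD4 arrays under the background gauge. The purine synthesis genes Gart (0.49 ± 0.12) and Atic (0.52 ± 0.12) and the mitochondrial folate gene Mthfd1l (0.68 ± 0.13) were higher in CD8, and Adk, which encodes adenosine kinase, was lower (-1.10 ± 0.13). Other probe sets of Gart differed by 0.01 and -0.04. Gart lost its call without each of the 6 arrays in turn (adjusted p = 0.0632 to 0.24), Atic without each of the 6 arrays in turn (adjusted p = 0.0532 to 0.153), and Mthfd1l without CD4 array 2 (adjusted p = 0.0503). On the CD4 side Cxcr1, a chemokine receptor gene known best from neutrophils that the chemokine receptor list does not hold, read 6.69, 6.51 and 6.60 on the CD4 arrays and 5.13, 5.05 and 5.30 on the CD8 arrays (-1.44 ± 0.12, adjusted p = 7.55e-06). Beside it, 0 of 14 myeloid markers passed the threshold and their median difference was -0.19. The part of myeloid cells in the result was not tested.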
